A study of Homo sapiens with 20 samples.

Results

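The olfactory receptor genes of chromosome 11 were examined in 6 cohesin peak lists. The members were the protein-coding genes of GENCODE v44 on chromosome 11 of hg38 whose symbol is OR followed by digits, letters and digits, and 172 of the 1317 protein-coding genes of the chromosome qualified. Genome-wide, 400 of 20033 protein-coding genes carry such a symbol. Members closer than 200 kb were joined, which placed 171 of them in 10 clusters and left 1, OR2AT4, alone at chr11:75081753-75096876.

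The lists came from chromatin immunoprecipitation and sequencing (ChIP-seq) of RAD21, SA1 and SA2 in CHM13 and RPE-1 cells. Both are untreated lines immortalised with hTERT. The first was established from a complete hydatidiform mole and the second from the pigmented epithelium of the retina. There were 20 libraries: 3 replicates per subunit and of the input chromatin in CHM13 cells, and 2 of each in RPE-1 cells. The RAD21 antibody was ab992 in CHM13 and ab154769 in RPE-1 cells, whereas SA1 (A302-579A) and SA2 (A302-580A) were precipitated with the same antibody in both. Each list pools the replicates of 1 subunit in 1 line and gives peak positions with no height or count, so intervals below cover counting error only and no spread between replicates can be given. The lists hold no expression values, and the lines could not be checked against marker genes.

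Olfactory receptors are G protein-coupled receptors that bind odorants on sensory neurons of the nose, and each such neuron expresses essentially a single receptor gene. The genes usually have a single coding exon, lie in tandem clusters that also hold many pseudogenes, and are largely silent in other cell types. Class I receptors, families 51 to 56 here, descend from receptors shared with fish, and class II receptors are specific to land vertebrates. Cohesin is a ring of SMC1, SMC3 and RAD21 with either SA1 (STAG1) or SA2 (STAG2). In interphase it extrudes chromatin loops and is stopped at sites bound by CTCF, and many promoters of active genes also carry it.

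The clusters fell into 3 groups by position. The largest block of CENP-B box matches, which marks the centromeric alpha-satellite DNA in hg38, spanned chr11:51078991-54424363. Within 10 Mb of it lay 6 clusters with 82 genes, all of class II, over 2.94 Mb. In the first 12 Mb of the chromosome, at 11p15, lay 3 clusters with 67 genes over 2.14 Mb, of which 55 were class I and 12 class II. All 55 class I genes of the chromosome were in 1 cluster, OR52B4 to OR52W1 (chr11:4367263-6200186). The remaining cluster, OR6X1 to OR8A1 at 11q24 (chr11:123753580-124582942), held 22 genes over 0.829 Mb. The 10 clusters covered 5.91 Mb and held 139 receptor pseudogenes besides the members. Their GC content was 37.9%, against 41.7% in the remaining 129 Mb of the chromosome.

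Peaks of the 6 lists that touched one another were merged into sites, and 60 sites had their centre in a cluster. Of these, 5 were in all 6 lists, 4 of them in the OR52B4 to OR52W1 cluster and 1 in the OR5AN1 to OR10V1 cluster. The 200 bases at the centre of a site are shown for 4 of the 5, together with the site at OR51D1, which with OR52N2 is 1 of only 2 members with a peak at their start. The fifth site, chr11:4493078-4493938 beside OR52K1, lay over the 3′ UTR of that gene and is not printed. The sequences are from the + strand of hg38. Capitals mark either of 2 motifs on either strand: the letters AGAGGGCA, AGAGGGCG, AGATGGCA, AGATGGCG, AGGGGGCA, AGGGGGCG, AGGTGGCA or AGGTGGCG, which are variants of part of the CTCF core motif, and CACTAG, a shorter word chosen after these sequences had been read.
Site at OR51D1, 4 lists (chr11:4636944-4637143): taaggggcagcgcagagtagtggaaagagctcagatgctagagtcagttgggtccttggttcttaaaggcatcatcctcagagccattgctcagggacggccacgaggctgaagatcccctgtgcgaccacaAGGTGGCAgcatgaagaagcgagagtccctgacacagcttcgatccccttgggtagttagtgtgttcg
Site beside OR51V1, 6 lists (chr11:5204836-5205035): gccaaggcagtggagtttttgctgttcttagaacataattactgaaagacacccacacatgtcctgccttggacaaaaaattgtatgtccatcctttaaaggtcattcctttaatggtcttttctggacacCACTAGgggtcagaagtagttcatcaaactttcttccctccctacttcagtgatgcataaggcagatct
Site beside OR51B4, 6 lists (chr11:5291337-5291536): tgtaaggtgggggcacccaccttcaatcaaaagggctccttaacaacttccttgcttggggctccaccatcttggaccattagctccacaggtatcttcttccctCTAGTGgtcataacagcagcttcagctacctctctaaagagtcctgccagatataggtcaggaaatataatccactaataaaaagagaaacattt
Site at OR52N2, 6 lists (chr11:5808496-5808695): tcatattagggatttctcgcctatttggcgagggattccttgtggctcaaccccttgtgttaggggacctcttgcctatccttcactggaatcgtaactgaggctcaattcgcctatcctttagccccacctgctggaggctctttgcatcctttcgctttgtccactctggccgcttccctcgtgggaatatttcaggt
Site beside OR10V1, 6 lists (chr11:59680643-59680842): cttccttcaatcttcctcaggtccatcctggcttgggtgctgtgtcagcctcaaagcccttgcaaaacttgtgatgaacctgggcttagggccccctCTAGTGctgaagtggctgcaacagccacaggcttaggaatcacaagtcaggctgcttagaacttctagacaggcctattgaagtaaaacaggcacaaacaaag

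None of the 5 sites in all 6 lists held an 8-letter word within 300 bases around its centre (Wilson 95% interval 0.0 to 43.4%). In the rest of the chromosome 122 of 237 such sites did (51.5%, 45.1 to 57.8). Among sites in all 3 CHM13 lists the shares were alike, with 15 of 36 (41.7%) in the clusters and 41.4% of 1552 in the rest. CACTAG was in 4 of the 5, against 53 of 237 (22.4%) in the rest. Over all 60 cluster sites the 8-letter words were in 18 (30.0%, 19.9 to 42.5), and over the 3711 sites of the rest in 27.5%. CACTAG was in 19 of the 60 (31.7%) and in 14.4% of the rest. For comparison, 4.9% of 300-base tiles of the clusters held an 8-letter word and 7.83% held CACTAG. In the rest these shares were 6.8% and 7.75%. The absence of a match says only that these letters are not in the window, not that the rest of the CTCF motif is missing. CACTAG ends in AG, the letters with which every 8-letter word begins, so the words can overlap and are not separate features. At the OR51V1 site the bases from that AG onward read AGGGGTCA, close to the word AGGGGGCA. Whether CACTAG is another part of that motif was not tested. It was picked from the sites it is counted in, so its counts describe those sites and are no test.

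The clusters carried fewer cohesin peaks per Mb than the rest of chromosome 11 in every list. In CHM13 cells, RAD21 had 58 peaks in the clusters, 9.81 per Mb, against 27.7 per Mb in the rest, a ratio of 0.355 (exact 95% interval 0.269 to 0.46, adjusted p = 8.78e-20). SA1 had 37 peaks, 6.26 against 14.3 per Mb, a ratio of 0.437 (0.307 to 0.605, adjusted p = 3.97e-08 by the same exact test). SA2 had 47 peaks, 7.95 against 16.8 per Mb, a ratio of 0.474 (0.348 to 0.633, adjusted p = 3.97e-08, exact test). The reduction was therefore between 2 and 3 times for all 3 subunits, and the intervals of the 3 ratios overlapped.

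In RPE-1 cells far fewer peaks were listed anywhere, and the clusters were again poorer. RAD21 had 9 peaks in the clusters, 1.52 against 6.13 per Mb, a ratio of 0.249 (0.113 to 0.474, adjusted p = 3.52e-07, exact test). SA1 had 11 peaks, 1.86 against 3.83 per Mb, a ratio of 0.486 (0.241 to 0.877, adjusted p = 0.0144, exact test). SA2 had 6 peaks, 1.02 against 2.39 per Mb, a ratio of 0.425 (0.155 to 0.937, adjusted p = 0.0269, exact test). All p-values are from the exact two-sided test of 2 Poisson counts, adjusted over the 6 lists. Where the error was instead taken from the spread between 100-kb pieces of the chromosome, each list still passed the threshold of 0.05, with adjusted p from 8.97e-05 to 0.0469.

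The clusters were also compared with GC-poor sequence. In the 58.3 Mb of the rest made of 100-kb tiles under 40% GC, CHM13 RAD21, SA1 and SA2 had 18.8, 9.3 and 11.9 peaks per Mb. Against this rest the CHM13 ratios were 0.521, 0.673 and 0.669, and all 3 passed the exact test with adjusted p of 8.32e-07, 0.035 and 0.0184. The error from the spread between 100-kb pieces was not computed against this rest. Against the full rest, variance between pieces was 3.25, 1.57 and 1.95 times counting variance in these lists. The passes against GC-poor sequence therefore cover counting error only. The RPE-1 ratios became 0.814 for RAD21, 0.835 for SA1 and 1.1 for SA2, each with an adjusted p of 0.822 by the exact test. In RPE-1 cells the clusters thus could not be told from other GC-poor sequence at these peak numbers, and the interval for RAD21, 0.363 to 1.6, allows both a reduction and an excess. The RPE-1 intervals for SA1 and SA2 were 0.407 to 1.54 and 0.385 to 2.54. All 3 include the CHM13 ratio of the same subunit, so no difference between the lines was shown. Low density was also not particular to the receptor clusters: 30 of 135 tiles of 1 Mb over the whole chromosome, clusters included, had a CHM13 RAD21 density at or below theirs.

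**Figure D1:**
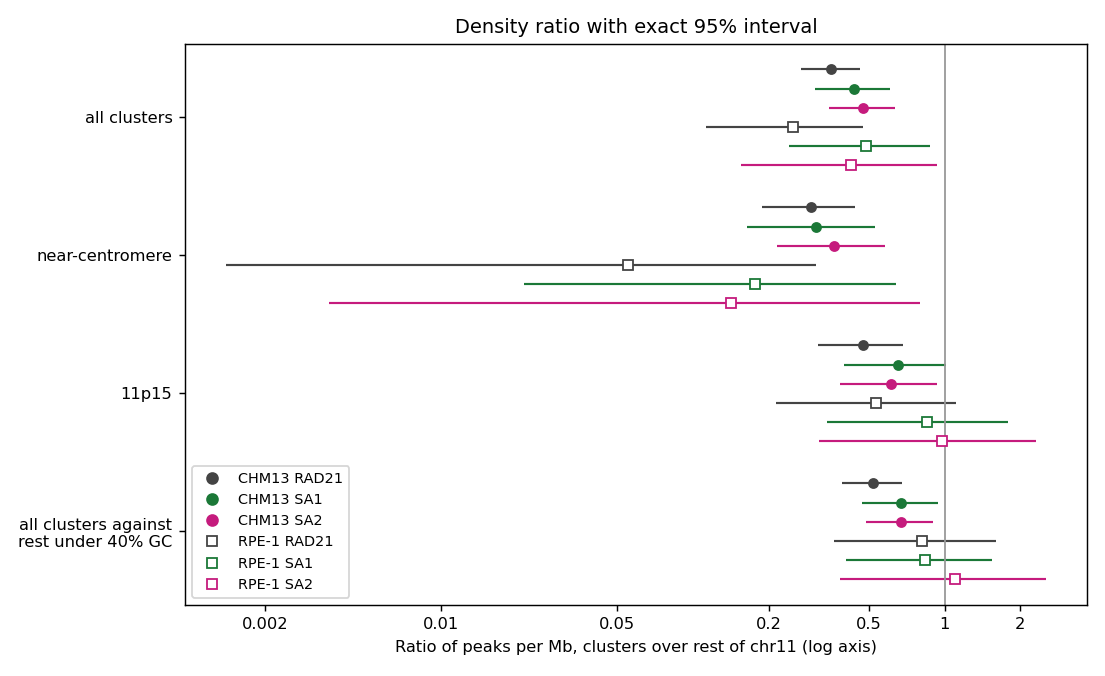
Ratio of peaks per Mb in the receptor clusters to the rest of chromosome 11 (log axis) for all clusters, the near-centromere and 11p15 groups, and all clusters against GC-poor sequence. Points are ratios, bars exact 95% intervals, filled circles CHM13 and open squares RPE-1. For all clusters against the full rest, the intervals of both lines end below 1. Against sequence under 40% GC the CHM13 intervals end below 1, and the RPE-1 intervals span 1 and include the CHM13 ratios.

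Uniqueness of sequence differed little overall. Of 50-base words taken every 10 bases, 8.37% in the clusters occurred more than once on chromosomes 1 to 22, X and Y of hg38, against 8.81% in the rest and 6.52% in the rest without the centromeric block. The share was 10.0% in the near-centromere group, 7.31% at 11p15 and 5.26% at 11q24, and it was highest in the OR4C46 to OR4A5 (23.7%) and OR4B1 to OR4A47 (21.1%) clusters. In the large OR4A16 to OR5AK2 cluster it was 8.39%. The part of repeated sequence in the peak numbers was not tested.

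The near-centromere clusters lay below the rest of the chromosome in every list. In CHM13 cells they held 24 RAD21, 13 SA1 and 18 SA2 peaks, or 8.15, 4.41 and 6.11 per Mb. Their ratios to the rest of the chromosome were 0.295 (0.189 to 0.439), 0.308 (0.164 to 0.529) and 0.365 (0.216 to 0.578), with adjusted p of 1.57e-12, 1.12e-06 and 1.12e-06 by the exact test. RPE-1 cells had 1 RAD21, 2 SA1 and 1 SA2 peak in these 2.94 Mb, for ratios of 0.0554, 0.177 and 0.142 and adjusted p of 1.12e-06, 0.00243 and 0.018 by the exact test. RPE-1 SA2 passed the exact test only, and with the error from the spread between 100-kb pieces its adjusted p was 0.0645. With the GC-poor rest the CHM13 lists still passed the exact test, the only error computed against that rest. The RPE-1 ratios for RAD21, SA1 and SA2 became 0.182, 0.304 and 0.366 there, and none passed (adjusted p of 0.103, 0.118 and 0.523 by the exact test).

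At 11p15 the densities were higher than near the centromere in all 6 lists, at 13.1, 9.37 and 10.3 per Mb for CHM13 RAD21, SA1 and SA2 (28, 20 and 22 peaks). RPE-1 RAD21, SA1 and SA2 had 7, 7 and 5 peaks there, or 3.28, 3.28 and 2.34 per Mb. Against the rest of the chromosome only CHM13 RAD21 passed, with a ratio of 0.474 (0.315 to 0.686, adjusted p = 7.4e-05 by the exact test), and it did not pass with the error from 100-kb pieces (adjusted p = 0.181). CHM13 SA1 and SA2 had ratios of 0.654 (0.399 to 1.01) and 0.615 (0.384 to 0.933). The RPE-1 ratios were 0.535 (0.214 to 1.11), 0.855 (0.342 to 1.78) and 0.981 (0.316 to 2.31). With the GC-poor rest the CHM13 RAD21 ratio was 0.697 and no longer passed (adjusted p = 0.188, exact test), and with peaks shared by all 3 subunits it was 0.776 (adjusted p = 0.636, exact test). Against the same GC-poor rest the RPE-1 ratios for RAD21, SA1 and SA2 lay above 1, at 1.75 (0.689 to 3.74), 1.47 (0.579 to 3.12) and 2.53 (0.789 to 6.27), with adjusted p of 0.266, 0.519 and 0.188 by the exact test, so their direction at 11p15 depends on the rest chosen.

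The 2 groups were then compared directly. Near-centromere density over 11p15 density was 0.621, 0.471 and 0.593 for CHM13 RAD21, SA1 and SA2 and 0.104, 0.207 and 0.145 for the RPE-1 lists. None passed the threshold of 0.05 after adjustment, with values from 0.0703 to 0.11 by the exact test, and at an unadjusted p under 0.05 there were 3 (CHM13 SA1, RPE-1 RAD21 and RPE-1 SA1). With the error from the spread between 100-kb pieces the adjusted p ran from 0.153 to 0.219. The CHM13 outcome by the exact test changed when OR9Q1 to OR5B21 was left out, the near-centromere cluster with the highest CHM13 RAD21 density. Without it the CHM13 ratios for RAD21, SA1 and SA2 were 0.372, 0.434 and 0.394 and passed (adjusted p of 0.0227, 0.0434 and 0.0383 by the exact test). The cluster holds 0 RPE-1 peaks, and without it the RPE-1 ratios moved nearer to 1. RPE-1 RAD21, at 0.124, still came under the threshold (adjusted p = 0.0434, exact test), through the adjustment over the 6 lists, while SA1 and SA2 did not (adjusted p = 0.103 in each, exact test). That setting was chosen after the values were seen, and leaving out a cluster dense in CHM13 peaks lowers the CHM13 ratios by construction. Its passes are therefore no support for a difference between the groups. CHM13 SA1, with 3 peaks in that cluster, moved only from 0.471 to 0.434.

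**Figure D2:**
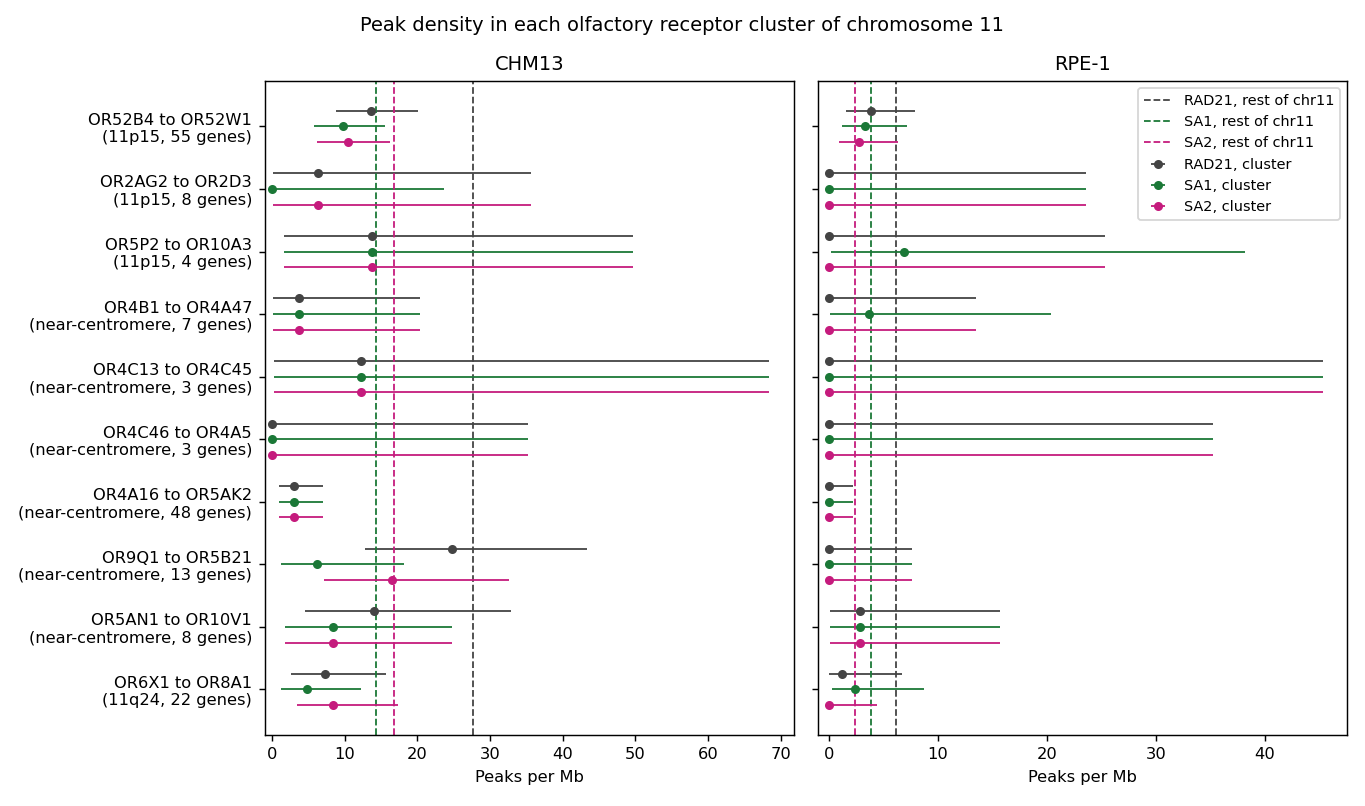
Peaks per Mb in each of the 10 clusters in CHM13 (left) and RPE-1 (right) cells, with exact Poisson 95% intervals. Dashed lines are the densities in the rest of chromosome 11; the OR4A16 to OR5AK2 cluster sits at 3.04 per Mb in all 3 CHM13 lists and at 0 in RPE-1, and OR9Q1 to OR5B21 reaches 24.8 per Mb for CHM13 RAD21.

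The clusters differed from one another by a wide margin. OR4A16 to OR5AK2 (chr11:55343201-56989843), with 48 genes in 1.65 Mb the largest of the near-centromere group, held 5 peaks in each CHM13 list, 3.04 per Mb (0.986 to 7.09), and 0 in each RPE-1 list. All 5 were the same sites in the 3 CHM13 lists. OR9Q1 to OR5B21 (chr11:58023881-58508105), with 13 genes in 0.484 Mb, held 12 RAD21, 3 SA1 and 8 SA2 peaks in CHM13 cells, 24.8, 6.2 and 16.5 per Mb, and again 0 in RPE-1 cells. Of its 13 sites only 2 were in all 3 CHM13 lists. The gap between OR10W1 and OR5B17 held 8 of the 13. OR5AN1 to OR10V1 (chr11:59358895-59713845, 8 genes) held 5 RAD21, 3 SA1 and 3 SA2 peaks in CHM13 and 1 of each in RPE-1 cells.

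The small clusters beside the centromere held few peaks or none. OR4C46 to OR4A5 (chr11:54603069-54707902), 3 genes lying 0.179 Mb from the alpha-satellite block, had 0 peaks in all 6 lists, which at its length of 0.105 Mb allows up to 35.2 per Mb and therefore sets no useful limit. OR4C13 to OR4C45 (chr11:49952391-50033794) had 1 peak in each CHM13 list and OR4B1 to OR4A47 (chr11:48216810-48489722) had 1 in each CHM13 list and in RPE-1 SA1. At 11p15, OR2AG2 to OR2D3 (chr11:6765626-6921994) had 1 RAD21 and 1 SA2 peak in CHM13, and OR5P2 to OR10A3 (chr11:7795974-7941708) had 2 in each CHM13 list and 1 in RPE-1 SA1. At 11q24, OR6X1 to OR8A1 had 6, 4 and 7 peaks for CHM13 RAD21, SA1 and SA2 and 1, 2 and 0 for RPE-1.

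The class I cluster, OR52B4 to OR52W1, held the most peaks of the 10 clusters in every list and was also the longest, at 1.83 Mb. The highest CHM13 densities lay elsewhere, in OR9Q1 to OR5B21 for RAD21 (24.8 per Mb) and SA2 (16.5), and in OR5P2 to OR10A3 for SA1 (13.7, on 2 peaks). OR52B4 to OR52W1 held 25 RAD21, 18 SA1 and 19 SA2 peaks in CHM13 cells, 13.6, 9.82 and 10.4 per Mb. In RPE-1 cells it held 7, 6 and 5, or 3.82, 3.27 and 2.73 per Mb. It thus carried 7 of the 9 RPE-1 RAD21 peaks of all clusters. Without it the ratio of all clusters to the rest went from 0.249 to 0.0801 for RPE-1 RAD21, from 0.486 to 0.32 for RPE-1 SA1 and from 0.425 to 0.103 for RPE-1 SA2, and each of the 6 lists still passed. This cluster also contains 19 of the 30 other protein-coding genes that start inside a receptor cluster, among them the beta-globin genes and a group of TRIM genes. Of the 30, 6 have receptor symbols that end in P and fall outside the rule. The gap between OR52B6 and OR52P1, where TRIM6 and TRIM34 lie, held 7 of the 25 sites of the cluster. The beta-globin genes lie between OR51V1 and OR51B4, and 3 sites fell in that gap. Of these, those at chr11:5204468-5205404 and chr11:5291023-5291851 were in all 6 lists, and the third was in CHM13 RAD21 only.

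**Figure D3:**
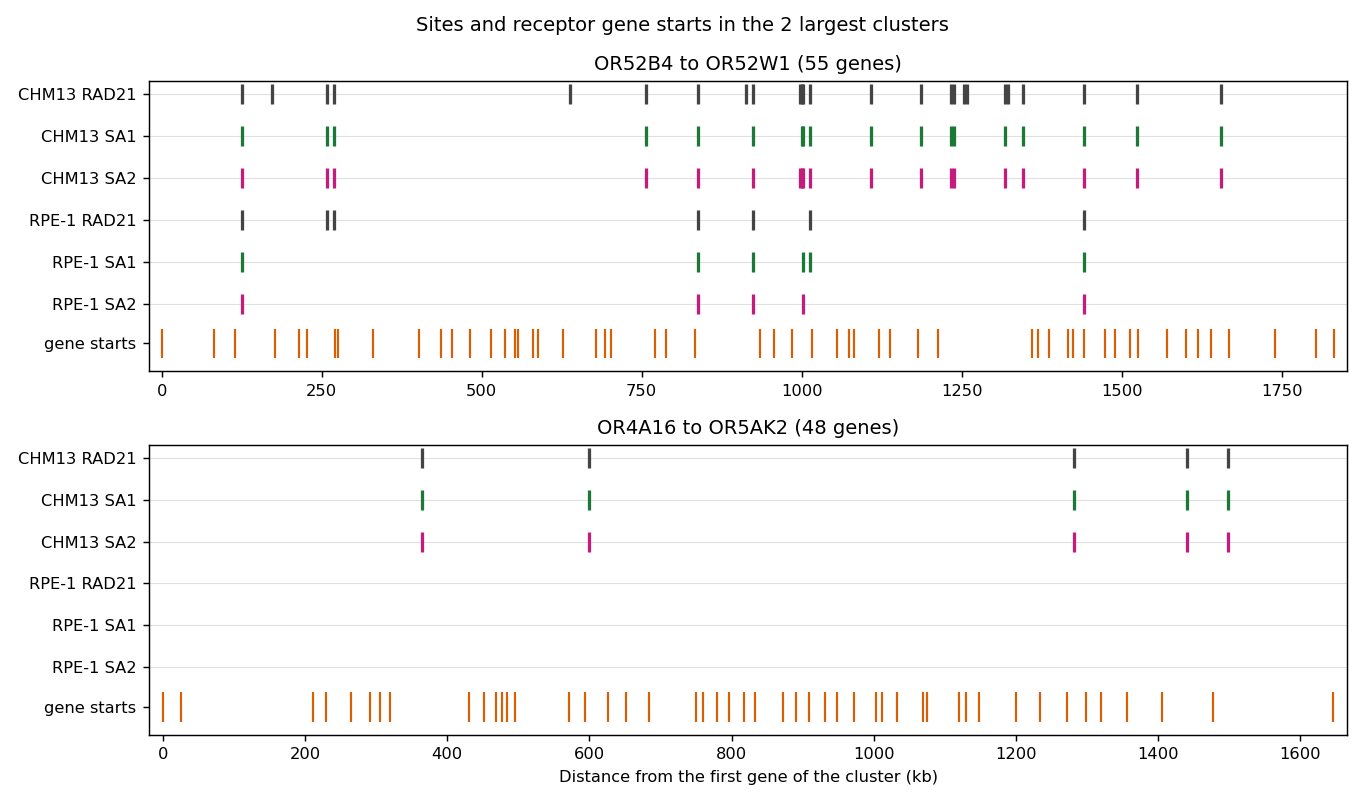
Sites in the 2 largest clusters, one row of ticks per list, with the starts of the receptor genes below; the x axis is the distance in kb from the first gene of each cluster. OR52B4 to OR52W1 has sites from all 6 lists, whereas OR4A16 to OR5AK2 has 5 sites, each in all 3 CHM13 lists and in no RPE-1 list.

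Peaks were all but missing from the starts of the receptor genes. A peak within 1 kb of the start was found for 2 of the 172 members in CHM13 RAD21 (1.16%, Wilson 95% interval 0.319 to 4.14), where 33.0% of all protein-coding genes and 33.2% of the other 1145 of chromosome 11 had one. The same 2 members had a peak in CHM13 SA1, where 17.6% of all genes had one, and in CHM13 SA2, where 14.0% had one. In RPE-1 RAD21 they were again 2 of 172, against a background of 6.2%. In RPE-1 SA1 and SA2 there was 1 member each (0.581%, 0.103 to 3.22), against 2.03% and 1.57% of all genes. The RPE-1 SA backgrounds lie inside the members' interval, so in those 2 lists the starts of receptor genes could not be told from those of other genes.

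OR52N2 and OR51D1, both class I, were the 2 members with a peak. The start of OR52N2 (chr11:5808924-5821483, + strand) lay inside the CHM13 RAD21 and SA2 peaks, and the nearest edges of the CHM13 SA1 and the RPE-1 RAD21, SA1 and SA2 peaks were 0.027, 0.064, 0.101 and 0.148 kb away. This site lies in an intron of TRIM5, whose span covers OR52N2, and is the fourth sequence above. At OR51D1 (chr11:4637477-4643060, + strand) the peaks of CHM13 RAD21, SA1 and SA2 and of RPE-1 RAD21 ended 0.121, 0.144, 0.121 and 0.137 kb from the start, and the nearest RPE-1 SA1 and SA2 peaks were 144 kb away. Its sequence held the word AGGTGGCA. Of the 117 class II members, 0 had a peak at the start in any list, which allows a share of up to 2.56%, taken as 3 counts of the total. Near the centromere it was 0 of 82, which by the same rule allows 3.66%.

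Widening the window to 5 kb raised the members with a peak to 11, 9 and 10 of 172 for CHM13 RAD21, SA1 and SA2, or 6.4%, 5.23% and 5.81%. The corresponding shares of the other coding genes of the chromosome were 46.0%, 28.9% and 26.2%. In RPE-1 cells the wider window gave 4, 4 and 2 members. The density of peak centres around receptor starts had no maximum at the start for CHM13 RAD21, with 5.81 per Mb within 1 kb and 10.9 per Mb at 20 to 50 kb. For RPE-1 RAD21 it went the other way, from 5.81 to 1.65 per Mb, where the first bin holds 2 peaks. Around the other coding genes it fell from 150.0 to 36.0 per Mb over the same range. In these counts a peak near several starts was counted once for each.

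**Figure D4:**
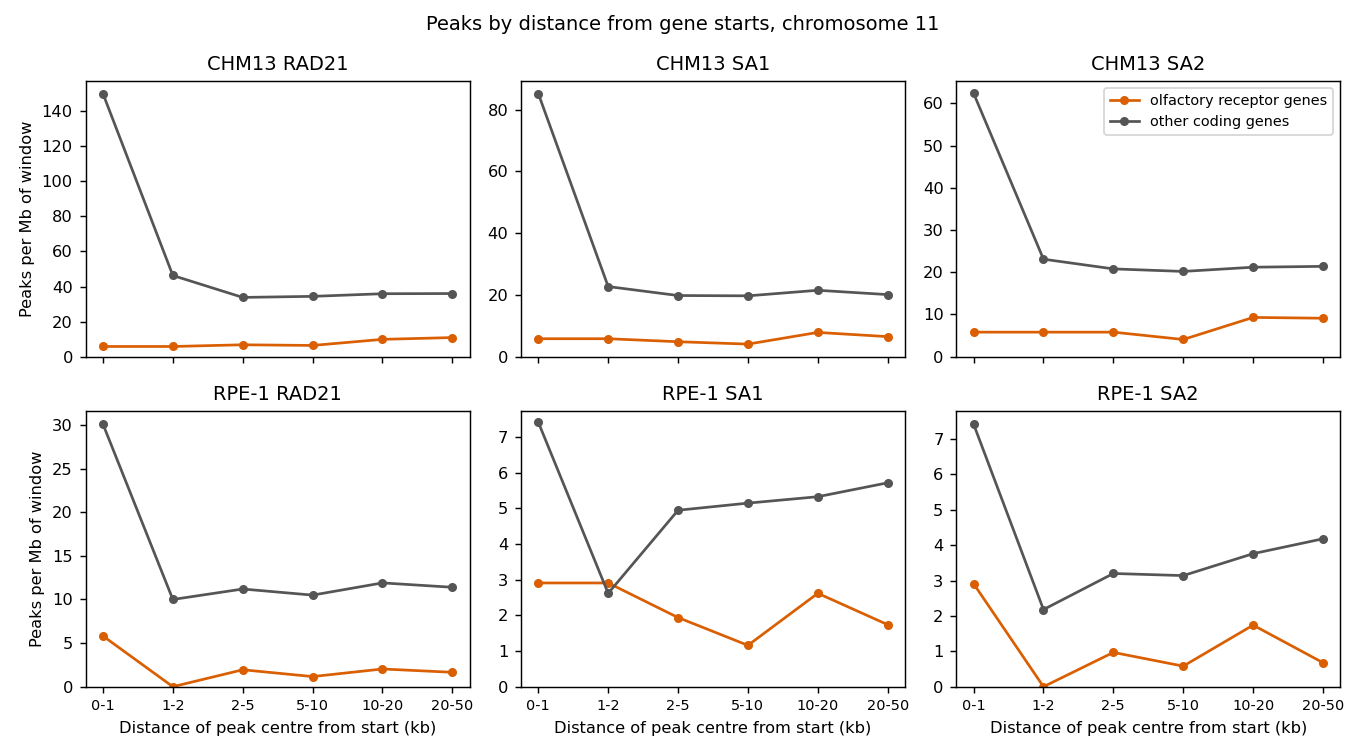
Peak centres per Mb of window against the distance from gene starts in kb, for the 172 receptor genes and the 1145 other protein-coding genes of chromosome 11, one panel per list with its own y axis. The other genes peak within 1 kb of the start, at 150.0 per Mb for CHM13 RAD21, while the receptor genes stay at 5.81 to 10.9 per Mb in that list.

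The sequence at the starts differed as well. In the window from 250 bases before to 50 after the GENCODE start, 11 of the 172 members (6.4%, 3.61 to 11.1) held one of the 8-letter words, against 247 of the 1145 other coding genes of the chromosome (21.6%, 19.3 to 24). Of the 30 other coding genes that start inside clusters, 1 had a peak at its start, TRIM22, an interferon-induced antiviral gene, and only in CHM13 RAD21. In the 21 genes fixed as the olfactory signalling and regulation list, 6 had a CHM13 RAD21 peak at the start (28.6%, against 33.0% of all genes), 2 an SA1 peak (9.52%, against 17.6%) and 1 an SA2 peak (4.76%, against 14.0%). In the RPE-1 lists 0 of 21 had a peak, where the backgrounds of 6.2%, 2.03% and 1.57% for RAD21, SA1 and SA2 leave about 1 gene or none to be found. Those 6 were ADCY3, the adenylyl cyclase of odorant signalling, the transcription factors and cofactors ATF5, EBF1, EBF2 and LDB1, and the histone demethylase KDM1A. CNGA4, a channel subunit of the same signalling path, and OMP, the olfactory marker protein, both on chromosome 11, had none.

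The distance from a receptor start to the nearest peak was long and varied by group. For CHM13 RAD21 the median was 43.0 kb over the 172 members (quartiles 20.2 and 89.6), against 6.38 kb for the other coding genes of the chromosome. It was 68.4 kb near the centromere, 33.4 kb at 11p15 and 36.4 kb at 11q24. The nearest member was OR52N2 at 11p15 and OR4S1 (1.41 kb) near the centromere, and the farthest were OR51F2 at 11p15 (183 kb) and OR4A5 near the centromere (403 kb). For RPE-1 RAD21 the medians were 586 kb near the centromere and 108 kb at 11p15, against 30.6 kb for the other genes. Of the 82 near-centromere starts, 61 (OR4B1 to OR5AK2) lay in 1 interval of 8.83 Mb across the centromeric block with no RPE-1 RAD21 peak. The near-centromere median therefore largely describes that interval. OR2AT4, the member outside the clusters, was 3.42 kb from a CHM13 RAD21 peak and 43.6 kb from the nearest CHM13 SA1 and SA2 peaks.

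**Figure D5:**
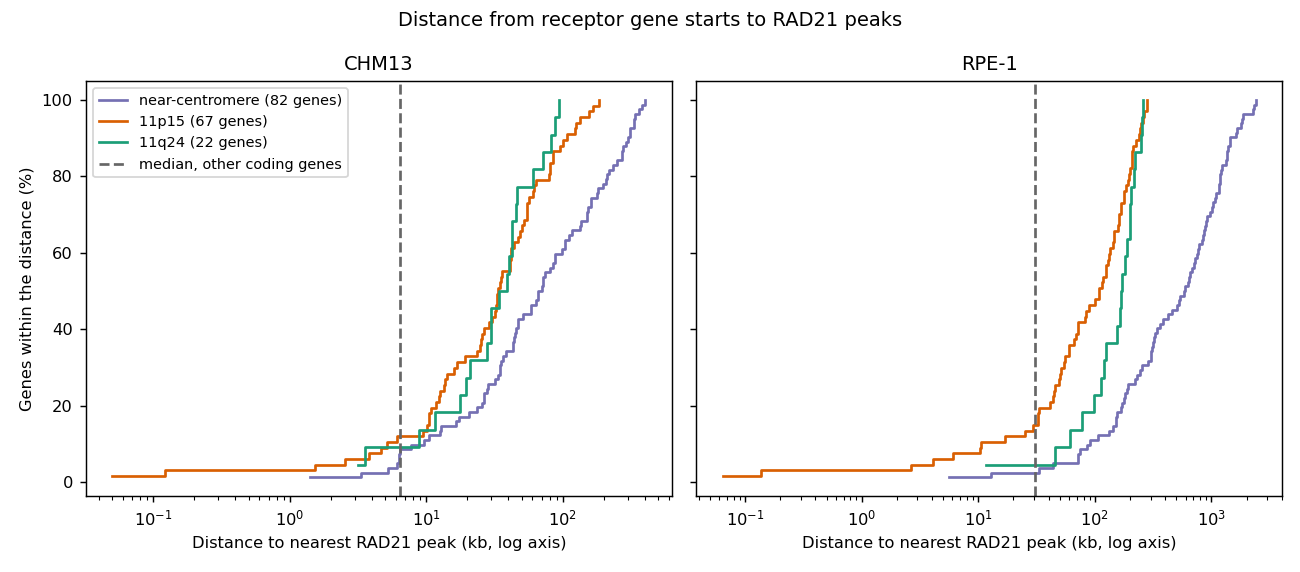
Share of receptor genes (y axis, percent) whose start lies within a given distance (x axis, kb, log axis) of a RAD21 peak, by cluster group, in CHM13 and RPE-1 cells; a distance of 0 is drawn at 0.05 kb. The dashed line is the median of the other coding genes, 6.38 kb in CHM13 and 30.6 kb in RPE-1, and the near-centromere curve is displaced to longer distances in both lines.

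Long runs of receptor genes had no RAD21 peak between them. In the CHM13 RAD21 list, the peak-free interval with the most receptor starts was chr11:55943298-56624483 in the OR4A16 to OR5AK2 cluster. It spanned 681 kb with 26 starts from OR10AG1 to OR5M1. The CHM13 SA1 and SA2 lists left the same 26 starts without a peak. At 11p15 the interval chr11:4637357-5004391, 367 kb, held 14 starts from OR51D1 to OR51L1. The third, chr11:54304226-55706853, spanned 1.4 Mb from the centromeric side with 11 starts, and 92.9% of its sequence was free of unknown bases.

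Within the clusters, no difference was detected between gene spans and the sequence between them. GENCODE spans of the members covered 0.954 Mb and held 8 CHM13 RAD21 peaks, 8.38 per Mb, against 10.1 per Mb in the 4.96 Mb between genes, a ratio of 0.831 (0.34 to 1.77). The ratio in the other 5 lists was between 1.07 and 2.6, and the adjusted p was 0.843 in each list by the exact test. The spans of 2 members, OR51B5 (chr11:5303444-5505652) and OR9Q1 (chr11:58023881-58181616), are far longer than their coding exons, and without these the CHM13 RAD21 ratio was 0.302 on 2 peaks. The coding sequence of the receptors, 0.162 Mb, was overlapped by 0 peaks in every list, which at this length allows a CHM13 RAD21 ratio of up to 2.33. A gap between neighbouring members held a site in 26 of 152 cases. Gaps with a site had a median length of 51 kb and those without 18.2 kb. A longer gap has more room for a site, so these medians show no preference for long gaps. The median distance from a site to the nearest receptor start was 13.1 kb, and the farthest was 44.7 kb.

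Density also changed across the cluster borders. For CHM13 RAD21 it was 23.4 per Mb at 200 to 100 kb outside the borders, 20.5 at 100 to 50 kb and 14.0 (7.65 to 23.5) in the 50 kb just outside. In the first 50 kb inside it was 7.13 (2.87 to 14.7) and at 50 to 100 kb inside 2.83 (0.343 to 10.2). CHM13 SA1 and SA2 went from 16.1 per Mb in both at 200 to 100 kb outside to 2.83 in both at 50 to 100 kb inside. Neighbouring bins overlapped in their intervals, and the inner bin of each list rests on at most 2 peaks. Over the clusters as a whole, CHM13 RAD21, SA1 and SA2 had 9.81, 6.26 and 7.95 peaks per Mb. These lie above both bins inside the borders but within the intervals of both, so a rise deeper inside was not shown beyond counting error. The bins also draw on different clusters, as short clusters do not reach far inside.

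A larger share of the sites in the clusters than of those elsewhere was in all 3 CHM13 lists. Of the 60 sites, 36 were in all 3 CHM13 lists (60.0%, 47.4 to 71.4), against 41.8% of 3711 sites in the rest. By group they were 20 of 28 at 11p15, 4 of 7 at 11q24 and 12 of 25 near the centromere. The share was thus largest at 11p15. CHM13 RAD21 peaks of the clusters overlapped an SA2 peak in 79.3% (67.2 to 87.7) and an SA1 peak in 62.1% (49.2 to 73.4), against 57.7% and 48.5% in the rest. CHM13 SA1 and SA2 peaks overlapped RAD21 in 97.3% and 97.9%, against 95.2% and 97.2%. Sites with RAD21 alone numbered 12 and sites with RAD21 and SA2 but not SA1 numbered 10, while 1 site had SA1 alone and 1 SA2 alone. No such split is given for the rest, so these counts have no background. Many came from OR9Q1 to OR5B21, where only 2 of 13 sites were in all 3 CHM13 lists. In RPE-1 cells 6 of 11 SA1 peaks overlapped RAD21 (54.5%, 28.0 to 78.7), against 83.8% (80.3 to 86.8) in the rest, and 5 of 6 SA2 peaks did. These shares are descriptions, and no test was made of them.

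SA2 peaks outnumbered SA1 peaks in CHM13 but not in RPE-1 clusters. The ratio of SA2 to SA1 peaks was 1.27 (0.808 to 2.01) in CHM13 clusters and 1.17 in the rest, and 0.545 (0.166 to 1.61) in RPE-1 clusters and 0.623 in the rest. Both cluster intervals include the value of the rest. Peaks of 1 SA subunit without the other numbered 11 for SA2 and 1 for SA1 in CHM13 clusters, against 573 and 264 in the rest. The near-centromere group held 6 of the 11 and the 1 SA1 peak, all of them in OR9Q1 to OR5B21. In RPE-1 clusters such peaks numbered 0 for SA2 and 5 for SA1, against 50 and 236 in the rest.

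Every RPE-1 peak of the clusters coincided with a CHM13 peak. All 9 RAD21, 11 SA1 and 6 SA2 peaks of RPE-1 in the clusters overlapped a CHM13 peak of the same subunit, as did 98.4% to 99.2% in the rest. A total of 14 sites had an RPE-1 peak of any subunit, and all 14 were in all 3 CHM13 lists. Their share of all sites, 23.3%, was equal to that in the rest, 23.3%. By group there were 9 at 11p15, 3 at 11q24 and 2 near the centromere. The ratio of CHM13 to RPE-1 peaks in the clusters was 6.44 (3.17 to 14.8) in the RAD21 lists, against 4.52 in the rest. It was 3.36 (1.68 to 7.31) against 3.73 in the SA1 lists and 7.83 (3.34 to 22.4) against 7.02 in the SA2 lists. The sonication, the sequencing depth, the fly chromatin added to CHM13 cells only, the replicate number and, for RAD21, the antibody differ between the lines and cannot be told apart from the line.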

How the data were processed

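The deposited files are lists of peak positions (start and end in bp on hg38) without counts, one for each of 2 cell lines and 3 subunits. The authors aligned reads with bwa, called peaks with macs, merged replicates and kept loci seen in at least 2 of them. The methods state this for CHM13 v1.0, and the submitters' processing notes name hg38, BWA, SAMtools, MACS2 and bcl2fastq 2.20. Lists on CHM13 v1.0 were not used. Members and gene lists were chosen with earlier results of these data known. Peaks were assigned by centre, and densities are per Mb without N. Densities were compared with the exact two-sided conditional test of 2 Poisson counts, adjusted by Benjamini-Hochberg over the 6 lists (threshold 0.05), in Python 3.11.15 with numpy 2.4.6, scipy 1.17.1 and pandas 2.3.3. The test was tested on simulated data with peaks placed independently and evenly within the clusters and within the rest, as the test assumes. Those data do not cover the uneven spread of the real peaks. A quasi-Poisson model over 100-kb pieces was the main alternative error. Named were members or other cluster genes with a peak at the start, cluster ends, the nearest and farthest members and sites in all 6 lists. Other genes were named after their values were seen. A peak near a start overlaps the start by 1 kb on either side, a start being the 5′ end of the GENCODE gene. Depth cannot be read from the lists, so precision is set by the number of peaks.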

Additional observations from a re-analysis of the deposited data

How the results depend on the processing

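No paired analysis was possible because each list pools its replicates, and for the same reason no replicate could be left out and no stricter threshold applied. Of 282 alternative values with a test, 232 kept their direction and their side of the threshold and 25 changed direction, none of which passed the exact test. A further 61 values have no test, and 57 of them stayed within the interval of the reported value. For all clusters against the rest, limiting the rest to GC under 40% gave 0.814, 0.835 and 1.1 in the RPE-1 RAD21, SA1 and SA2 lists, the last of which reversed. Peaks overlapping both other subunits gave 0.457 in each RPE-1 list, which no longer passed. A rest without coding gene starts gave 0.732 for RPE-1 SA1 and 0.723 for SA2. Leaving out OR9Q1 to OR5B21 gave 0.463 for RPE-1 SA2. These no longer passed, with adjusted p from 0.0603 to 0.822 by the exact test. Near the centromere, calls were lost for RPE-1 RAD21 (0.182), SA1 (0.304) and SA2 (0.366) with the GC-poor rest, for SA1 (0.267) and SA2 (0.242) with the rest without starts, and for SA2 with peaks at least as wide as the median (0.0) and with the error from 100-kb pieces (0.142). At 11p15, CHM13 RAD21 lost its call with peaks shared by all subunits (0.776), the GC-poor rest (0.697) and the error from 100-kb pieces (0.474). There the ratio crossed 1 with the GC-poor rest for CHM13 SA1 (1.01) and for RPE-1 RAD21 (1.75), SA1 (1.47) and SA2 (2.53), with the rest without starts for RPE-1 SA1 (1.29) and SA2 (1.67), with wide peaks for RPE-1 RAD21 (1.04), and with shared peaks for each RPE-1 list (1.01). CHM13 SA1 (0.519) and SA2 (0.507) passed when genes were joined at 100 kb, and SA2 (0.6) when the centromeric block and 5 Mb on either side were left out of the rest. Near the centromere against 11p15, leaving out OR9Q1 to OR5B21 gave 0.372, 0.434 and 0.394 for CHM13 RAD21, SA1 and SA2 and 0.124 for RPE-1 RAD21, which then passed, although that cluster holds 0 RPE-1 peaks and the RPE-1 ratio moved toward 1. For gene spans against the sequence between them, the ratio crossed 1 for CHM13 RAD21 with any overlap (1.04) and, without the 2 long spans, for CHM13 SA1 (0.483), CHM13 SA2 (0.375) and RPE-1 SA1 (0.844). With coding sequence only, assigned by centre or by any overlap, it was 0.0 in every list on 0 peaks. A window of 5 kb moved the share of starts with a peak to 6.4%, 5.23% and 5.81% in the CHM13 lists. Counting only SA peaks without the other subunit moved the CHM13 SA2 to SA1 ratio to 11 (1.6 to 473), against 2.17 (1.87 to 2.52) in the rest. The cause of these changes was not tested. Settings that leave out a cluster, the long gene spans or all but coding sequence were chosen after seeing the data. The RPE-1 lists had between 6 and 11 peaks in the clusters, and their intervals are wide for that reason.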

Other observations

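Receptor genes on other chromosomes were counted in the same way. Of the 228 olfactory receptor genes outside chromosome 11, 2 had a CHM13 RAD21 peak within 1 kb of the start, OR14A2 on chromosome 1 and OR6J1 on chromosome 14, where 33.0% of all protein-coding genes had one. OR6J1 also had a CHM13 SA2 peak. None of the 228 had a peak in CHM13 SA1 or in the 3 RPE-1 lists, which allows a share of up to 1.32%, taken as 3 counts of the total. The shares of all genes were 17.6% and 14.0% in CHM13 SA1 and SA2, and 6.2%, 2.03% and 1.57% in RPE-1 RAD21, SA1 and SA2, the last of them close to that limit. These counts are descriptions and no test was made of them.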
